A study of Mus musculus with 6 samples.

Results

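The IAP families were the 7 rows whose name starts with IAP in a table that also held 295 other transposon families: IAPEz-int, IAPEy-int, IAP-d-int, IAP1-MM_I-int, IAPEY3-int, IAPEY4_I-int and IAPLTR3-int. The name alone chose them, so that their levels and changes were free to differ. They were measured by RNA-seq in J1 WT mouse ES cells, feeder-free cells that carry no mutation, kept with LIF on gelatin. D0 cells were in serum medium, and D6 and D13 cells had spent 6 and 13 days in 2i+vitC, a serum-free medium with a MEK inhibitor, a Gsk3 inhibitor and vitamin C that is known to lower DNA methylation across the genome. Each day had 2 biological replicates of this single cell line, which makes 6 samples, and the medium and the days since the switch cannot be told apart. In bulk RNA, a higher level in every cell and more cells that express the family cannot be told apart either.

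IAPs (intracisternal A particles) are endogenous retroviruses of the mouse. A complete copy has gag and pol genes between a pair of long terminal repeats (LTRs), and copies with an env gene are known as IAPE elements. They move by reverse transcription of their RNA, and IAP insertions are a known source of mouse mutations. In ES cells IAPs are a textbook target of the KRAB zinc finger, TRIM28 and SETDB1 pathway, which deposits H3K9me3, and of DNA methylation, which they retain better than most sequences during reprogramming. The names are those of the RepeatMasker library, in which -int stands for the internal part of the retrovirus. All 7 rows end in -int and 0 rows are an IAP LTR of its own, and the authors rejoined the internal part and LTRs of an element before counting. The families differ in copy number and length, which were not used here, so levels of different families are compared as shares of reads only.

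A sample held 73230745 to 83688345 gene reads, and 725940 to 1896202 weighted reads fell on transposon families. IAPs took 14591 and 12416 of the latter in the D0 replicates 1 and 2, 49547 and 25499 in those of D6, and 28055 and 29749 in those of D13. The lowest value of any IAP family in any sample was 18 reads. The replicates of a day did not carry the same overall transposon level: at D6, 291 families, IAPs included, were higher in replicate 1, by a median of 0.77 on the log2 scale, while the median gene differed by -0.02. At D0 the same median was 0.42 and at D13 it was -0.78. All 7 IAP families were higher in replicate 1 at D6, by a median of 0.92. Their values are therefore also given relative to the median family of each sample. Of 5 ES cell markers (Pou5f1, Sox2, Nanog, Zfp42, Esrrb), all were expressed, with a summed level of 2255 to 2865 CPM at D0, 3234 to 3427 at D6 and 2434 to 2935 at D13. The 3 measured of 4 markers of 2-cell-like cells summed to 8.34 to 10.4 CPM at D0, 3.38 to 3.98 at D6 and 0.260 to 0.553 at D13. For primitive endoderm, 3 of 5 markers were measured, with 17.8 to 20.4 CPM at D0, 3.48 to 5.42 at D6 and 4.41 to 4.80 at D13. For fibroblasts, 3 of 4 gave 10.1 to 29.7, 4.86 to 5.11 and 5.50 to 5.62 CPM, and the 1 measured of 3 trophoblast markers, Eomes, lay between 2.97 and 5.41 CPM. Zscan4c, Zscan4d and Zscan4f fell by more than 4-fold from D6 to D13 (limma adjusted p = 0.023, 0.029 and 0.031), Dab2 fell by 4.32 on the log2 scale by D6 and Col1a2 fell by 3.86 by D13 (adjusted p = 0.00015 and 0.0042), while Nanog rose by 2.00 by D6 (adjusted p = 0.00029). The 4 lists of other cells thus held under 30 CPM in every sample, and their part in the IAP levels was not tested.

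Most IAP families rose during the first 6 days and none was called between D6 and D13. From D0 to D6, 6 of 7 rose more than 2-fold and 0 fell, beside 12.9% of all families that rose and 0% that fell by the same rule (more than 2-fold, limma adjusted p under 0.05 over 12928 genes and families). Their median log2 fold change was 1.96, against 0.18 over all families. From D6 to D13, 0 of 7 passed in either direction, beside 0% of families that rose and 3.97% that fell, and 1 of 7, IAPLTR3-int, had an unadjusted p under 0.05 in limma, and with voom precision weights limma also gave 1 of 7. The median was -0.45 for the IAPs and -0.35 for all families. Between the end points D0 and D13, 4 rose and 1 fell, beside 9.27% and 5.63% of families, with a median of 1.60 against -0.10. Both counts depended on single samples. Without D0 replicate 1, 3 families rose and 0 fell in either comparison. From D0 to D6, 3 rose and 1 fell without D6 replicate 1, and 4 rose and 1 fell without D0 replicate 2. Relative to the median family of each sample, a scaling chosen after seeing the data, 4 rose and 1 fell from D0 to D6, and 4 rose and 1 fell from D0 to D13.

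**Figure D1:**
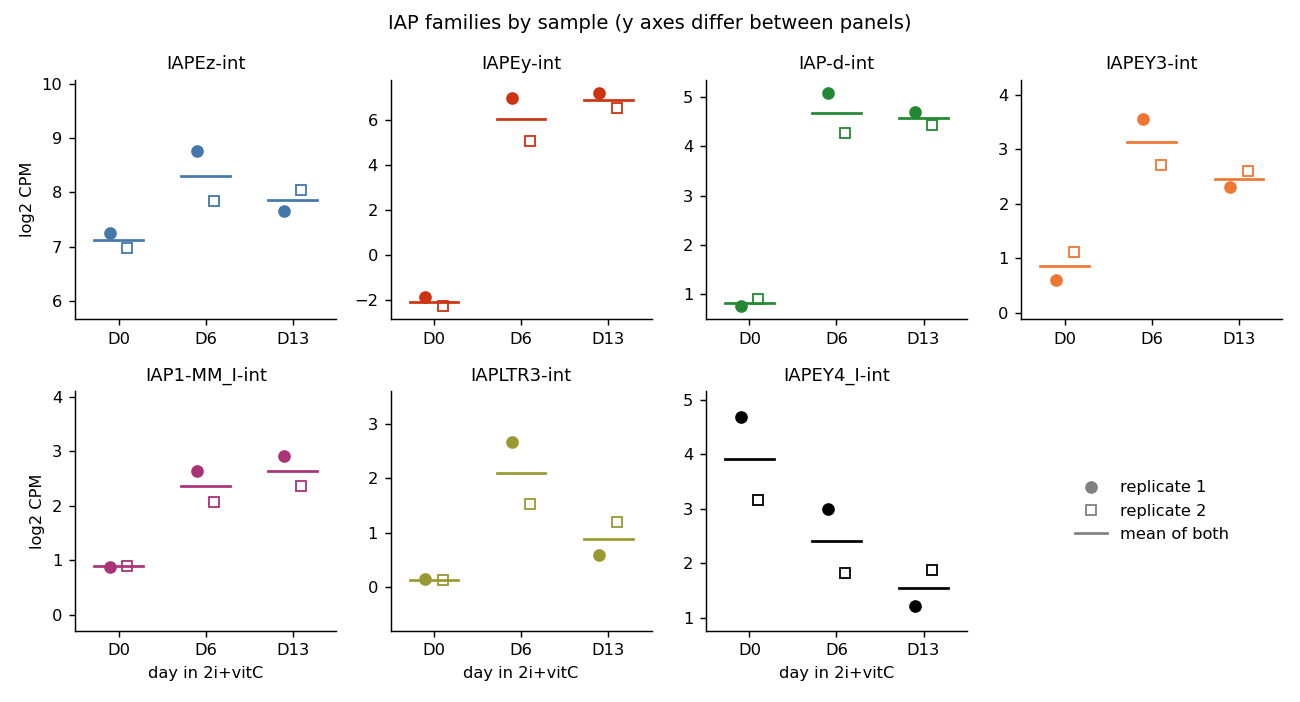
Deposited log2 CPM of each IAP family in the 6 samples (filled circle, replicate 1; open square, replicate 2; line, mean of both), by day in 2i+vitC, with y axes that differ between panels. The D6 and D13 values lie above both D0 values in 6 families, while IAPEY4_I-int is highest at D0, and replicate 1 is the higher at D6 in each of the 7 panels.

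IAPEz-int holds most IAP reads and is the family behind most studied IAP insertions. Its log2 CPM was 7.26 and 6.98 at D0, 8.76 and 7.84 at D6, then 7.66 and 8.05 at D13. Both D6 and both D13 samples were above both D0 samples, and the D6 and D13 samples overlapped. The rise from D0 to D6 was 1.19 on the log2 scale (SE 0.32), or 2.28-fold (limma adjusted p = 0.026). The end points differed by 0.74 (SE 0.32), which did not pass (adjusted p = 0.091), and D6 and D13 differed by -0.45 (95% interval -1.17 to 0.27, adjusted p = 0.42). The call at D6 was lost without D6 replicate 1 (log2 fold change 0.73, adjusted p = 0.29), without D0 replicate 1 (1.32, 0.068) and without D0 replicate 2 (1.05, 0.12). Relative to the median family, the rise was 0.77 and did not pass (limma adjusted p = 0.35), and the D6 to D13 difference was 0.02.

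The sequence by which the study itself followed IAPEz, in assays not analysed here, shows the element behind the name. It is the 100-base target of a NanoString probe, and the primer pair is labelled as the IAPdelta1 subfamily. They are given 5′ to 3′ as designed, in lower case:
IAPEz target: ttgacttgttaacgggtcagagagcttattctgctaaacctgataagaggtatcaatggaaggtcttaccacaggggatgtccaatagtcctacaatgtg
forward primer: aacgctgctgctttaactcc
reverse primer: tgcacataaagctggcaca
Among GENCODE vM21 transcripts (GRCm38), the whole target matched 1, the single exon of 392 bases of Gm37917 (chr9:98767930-98768321, plus strand), an unclassified transcript. The forward primer lay at chr9:98768006-98768025, the target at chr9:98768046-98768145 and the reverse primer, on the minus strand, at chr9:98768142-98768160, which spans 155 bases. The forward primer also occurred in transcripts of Noct and Gm42860. No genome sequence was searched, so the matches say nothing about how many genomic copies hold these letters.

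IAPEy-int changed most. It was nearly silent in serum, at -1.84 and -2.27 log2 CPM, which are 21 and 18 weighted reads. It reached 6.99 and 5.07 at D6, then 7.21 and 6.52 at D13, or between 2865 and 10615 reads. All 4 samples in 2i+vitC were thus far above both serum samples, and D6 and D13 overlapped. The log2 fold change was 8.09 (SE 0.56) from D0 to D6 and 8.93 (SE 0.56) from D0 to D13, or 273-fold and 486-fold (limma adjusted p = 4.2e-05 and 2e-05), each fold resting on the few reads at D0. It ranked first of all families in both. From D6 to D13 it changed by 0.84 (95% interval -0.44 to 2.11, adjusted p = 0.39). The 2 D6 samples differed by 1.92 on the log2 scale, so the fold at D6 depended on the sample: the log2 fold change from D0 was 9.05 without D6 replicate 2 and 7.13 without D6 replicate 1, and it was called in both. Relative to the median family it went from -3.97 and -3.96 at D0 to 4.29 and 3.23 at D6, then 5.82 and 4.28 at D13.

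IAP-d-int was the second IAP family by size of change, and among all families its rise ranked 10 to D6 and 9 to D13. It stood at 0.76 and 0.91 log2 CPM at D0, 5.09 and 4.27 at D6, then 4.70 and 4.43 at D13. These values do not overlap between serum and 2i+vitC and do overlap between D6 and D13. The rise was 3.84 (SE 0.33), 14.4-fold, from D0 to D6 and 3.73 (SE 0.33), 13.3-fold, from D0 to D13 (limma adjusted p = 0.00011 and 8.5e-05). It was called with any sample left out, with a log2 fold change to D6 between 3.43 and 4.26. The D6 to D13 change was -0.11 (95% interval -0.87 to 0.64).

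Bglap3, a paralog of the gene for osteocalcin, a bone matrix protein, is the gene for which the study listed an IAP-d-int element as an alternative first exon. As the study chose it on these samples, its direction is no independent evidence. It had 4 and 8 reads at D0, 684 and 389 at D6, then 1121 and 292 at D13, or -4.13 and -3.36, 3.12 and 2.19, and 3.97 and 1.96 log2 CPM. Serum and 2i+vitC samples did not overlap. The log2 fold change was 6.40 (SE 0.68) to D6 and 6.71 (SE 0.68) to D13 (limma adjusted p = 0.00028 and 0.00015), where 5.91% and 7.45% of the 12626 genes rose by more than 4-fold. From D6 to D13 it was 0.31 (adjusted p = 0.82). With 4 reads in a sample the D0 level, and so the fold, is loosely set. Over the 6 samples the centred profile of Bglap3 differed from that of IAP-d-int by a root mean square of 1.42 on the log2 scale, and with no minimum of reads IAP-d-int was the sixth closest of all families to it, behind IAPEy-int at 1.11. Reads on RefSeq exons were removed before families were counted. Whether the IAP-d-int first exon of the chimeric transcript is among those exons was not tested. Reads of that transcript may therefore be in the IAP-d-int value, and the 2 rises may not be separate measurements.

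RefSeq places 3 starts in Bglap3, all on the minus strand of GRCm38.p6, and 2 of their windows hold near copies of the same letters. They are shown because the study tied the gene to IAP-d-int and both were higher in 2i+vitC than in serum, by unlike amounts. Each line gives bases before the start, 5′ to 3′, with the motif TATATAA in capitals:
distal start, chr3:88372742-88372991: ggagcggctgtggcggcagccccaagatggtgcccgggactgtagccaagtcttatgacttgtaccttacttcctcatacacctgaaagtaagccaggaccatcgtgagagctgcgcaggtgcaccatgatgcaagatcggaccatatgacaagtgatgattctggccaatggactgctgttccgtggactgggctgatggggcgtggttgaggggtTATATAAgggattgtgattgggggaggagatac
proximal start, chr3:88369832-88369981: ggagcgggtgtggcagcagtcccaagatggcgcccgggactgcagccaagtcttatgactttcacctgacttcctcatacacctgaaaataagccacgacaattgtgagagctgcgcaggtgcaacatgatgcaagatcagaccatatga
The whole 300-base windows were aligned locally. The first 200 bases of the distal window matched the last 200 of the proximal window at 184 positions, 92.0%. The proximal start thus lies within the repeated stretch. As the match ran to the last base of the proximal window, its end was not seen, nor whether it reaches the distal start. The middle window gave an alignment of only 17 bases to the distal window. TATATAA, searched on both strands, was in 1 of the 3 Bglap3 windows, 33 bases before the distal start, and in 3.24% of all 32851 promoter windows of that length. The matching position of the proximal copy lies past the end of its window, so its letters there were not compared. A run of 20 bases of the distal window occurred in 5 windows of other genes. Whether the repeated stretch is an IAP LTR was not tested, as IAP consensus sequences were not used here. Single isoforms were not counted here, so the gene reads cannot be divided among the 3 starts. The study did count reads that join the IAP-d-int first exon to the next exon of Bglap3. By its count these were far more at D6 and D13 than at D0. Which of the 3 starts they belong to was not tested.

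**Figure D2:**
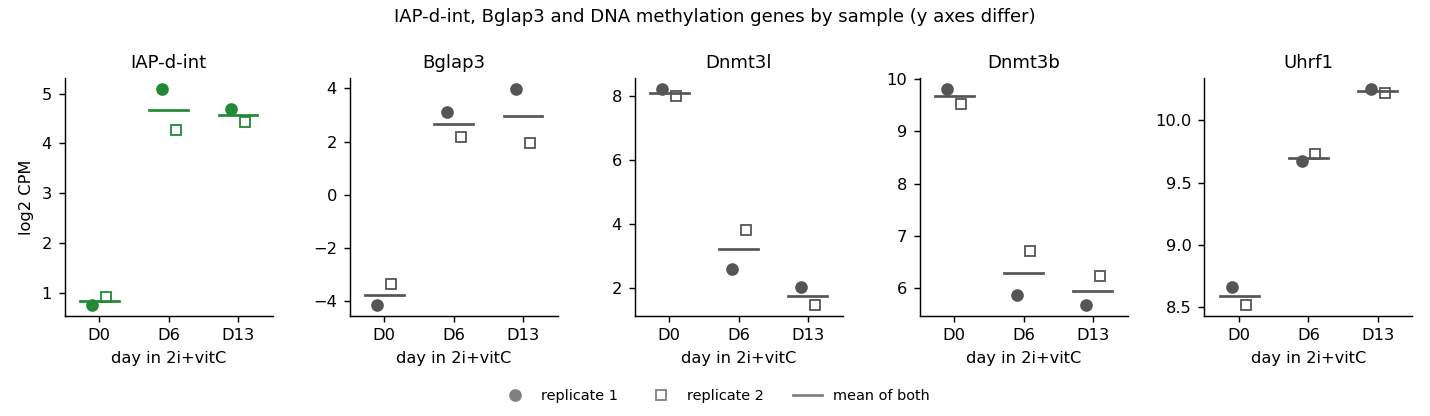
Log2 CPM by day in 2i+vitC of IAP-d-int, Bglap3 and DNA methylation genes in the 6 samples (filled circle, replicate 1; open square, replicate 2; line, mean), with y axes that differ. IAP-d-int and Bglap3 are higher in all 4 samples in 2i+vitC than at D0, Dnmt3l and Dnmt3b are lower, and Uhrf1 is higher.

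IAPEY3-int, IAP1-MM_I-int and IAPLTR3-int started at similar low levels, between 0.13 and 1.11 log2 CPM at D0. IAPEY3-int was at 0.61 and 1.11 at D0, 3.56 and 2.71 at D6, then 2.31 and 2.61 at D13. Serum samples were below all others, and the D13 samples were just below the D6 samples. It rose by 2.28 (SE 0.39) to D6 (limma adjusted p = 0.0033) and was 1.60 (SE 0.39) above D0 at D13 (adjusted p = 0.011). The second call was lost without D0 replicate 1 (adjusted p = 0.05 as rounded) and without D13 replicate 2 (adjusted p = 0.053).

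IAP1-MM_I-int had 0.89 in both D0 samples, 2.65 and 2.07 at D6, then 2.92 and 2.37 at D13. D6 and D13 overlapped and both lay above D0. The changes from D0 were 1.47 (SE 0.37, limma adjusted p = 0.02) at D6 and 1.76 (SE 0.37, adjusted p = 0.0056) at D13. At D6 the call rested on each of 3 samples: it was lost without D6 replicate 1 (1.18, adjusted p = 0.25), without D6 replicate 2 (1.76, adjusted p just over the threshold) and without D0 replicate 1 (adjusted p = 0.054). It was also lost relative to the median family, at 1.05 (adjusted p = 0.19), while the D13 call was kept on that scale (1.80, adjusted p = 0.023).

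IAPLTR3-int was at 0.14 and 0.13 at D0, 2.67 and 1.52 at D6, then 0.59 and 1.19 at D13. Its D13 values were below both D6 values and above both D0 values. The rise to D6 was 1.96 (SE 0.48, limma adjusted p = 0.018). It was lost without D6 replicate 1 (1.38, adjusted p = 0.24), without D0 replicate 1 (adjusted p = 0.058) and without D0 replicate 2 (adjusted p = 0.055), and kept relative to the median family (1.54, adjusted p = 0.0063). The later change of -1.20 (SE 0.48) did not pass (adjusted p = 0.17). At D13 the family was 0.75 (95% interval -0.33 to 1.84) from its D0 level.

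IAPEY4_I-int went the other way. It had 4.69 and 3.15 log2 CPM at D0, 2.99 and 1.82 at D6, then 1.22 and 1.88 at D13, or 2039 and 776, 627 and 301, and 166 and 276 weighted reads. Both D0 samples were above all others, by only 0.16 at D6, and D6 and D13 overlapped. The D0 samples differed from each other by 1.54 on the log2 scale. It fell by 2.37 on the log2 scale (SE 0.57) from D0 to D13, 5.17-fold lower (limma adjusted p = 0.01), and this call was lost without D0 replicate 1 (-1.60, adjusted p = 0.064) and without D13 replicate 1 (-2.04, adjusted p = 0.086). From D0 to D6 the change of -1.52 (SE 0.57) was the lowest of all families and did not pass (adjusted p = 0.09). It passed without D0 replicate 2 (-2.29, adjusted p = 0.029), without D6 replicate 1 (-2.10, adjusted p = 0.038) and relative to the median family (-1.93, adjusted p = 0.007).

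**Figure D3:**
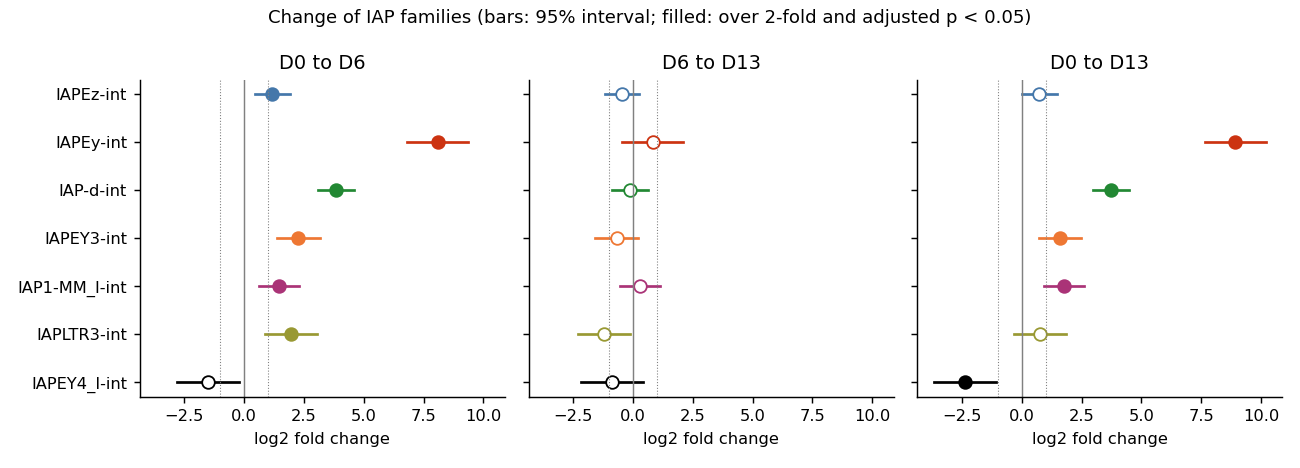
Log2 fold change of each IAP family (x axis) for the 3 pairs of days, with 95% intervals from limma as bars and filled points where the change was over 2-fold with an adjusted p under 0.05. From D0 to D6, 6 points are filled to the right of 0, from D6 to D13 none is filled, and from D0 to D13 IAPEY4_I-int is filled to the left.

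Whether families differed in their response was tested by the same limma fit on each row's log2 CPM minus that of IAPEz-int. From D0 to D6, IAPEy-int rose by 6.90 more than IAPEz-int (SE 0.63) and IAP-d-int by 2.66 more (SE 0.64), while IAPEY4_I-int was 2.70 below it (SE 0.66). These 3 of 6 passed (limma adjusted p = 6.8e-25, 0.00038 and 0.00048), beside 7.31% of the 301 other families. From D0 to D13 the same 3 passed, with differences of 8.19, 2.99 and -3.11 (adjusted p = 2.9e-35, 3.8e-05 and 3.4e-05), beside 14.6% of families. From D6 to D13, 0 of 6 passed, beside 0.664% of families, with 1 of 6, IAPEy-int, at an unadjusted p under 0.05. These p-values are too small, as the replicate spread of IAPEz-int enters every row and limma took the shared spread as known, with an infinite prior degree of freedom. With the spread of both families taken from the fit over days, the 3 differences at D6 still passed (adjusted p = 0.00055, 0.0043 and 0.013), as did those at D13 (0.00019, 0.0022 and 0.008). That spread treats both families as independent, although they were measured in the same samples. With each family's own spread and its 3 residual degrees of freedom, 0 of 6 passed at D6 (adjusted p = 0.17 for each of the 3) or at D13 (0.15, 0.16 and 0.16). Both of these fits were chosen after seeing the data.

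The other 3 families could not be told from IAPEz-int. IAP1-MM_I-int differed from it by 0.28 to D6 (95% interval -1.04 to 1.61) and by 1.02 to D13 (-0.31 to 2.35). For IAPEY3-int these values were 1.09 (-0.22 to 2.41) and 0.86 (-0.45 to 2.18), and for IAPLTR3-int 0.77 (-0.63 to 2.17) and 0.02 (-1.38 to 1.41). Each interval at D6 allows a rise more than 2-fold larger than that of IAPEz-int, so a difference was not excluded by these samples. By profile over the 6 samples, centred on each family's mean, IAPLTR3-int and IAPEz-int were the closest pair, with a root mean square difference of 0.38, and IAPEy-int and IAPEY4_I-int the farthest apart, with 5.01.

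All 7 families together took 1.19% and 1.24% of transposon reads at D0, 2.61% and 1.83% at D6, then 3.86% and 3.35% at D13. The mean went from 1.22% ± 0.039 in serum through 2.22% ± 0.55 to 3.61% ± 0.36 (SD, n = 2), and no value of a day reached the next day's range. Summed IAP CPM did not keep that order: it was 164 ± 30.3 in serum, then 464 ± 233 and 394 ± 2.79 (SD, n = 2), while all families together took 1.35% ± 0.24, 2.06% ± 0.57 and 1.08% ± 0.16 of the counted reads. The share therefore rose from D6 to D13 while the summed IAP level lay within the D6 range. These shares are given as a description, with no test (an exact permutation test of 2 samples against 2 cannot give a p below 0.33), and with no counting interval, as reads are weighted and not whole counts.

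Within the IAP reads, IAPEz-int held 82.6% and 88.7% at D0, 69.2% and 76.6% at D6, then 51.4% and 67.0% at D13, so that its share was lower in each later sample than in either serum sample. IAPEy-int held 0.147% and 0.142% at D0, 20.2% and 11.2% at D6, then 37.8% and 23.2% at D13. It passed from the smallest family in serum to the second largest. IAP-d-int went from 1.11% ± 0.29 at D0 to 5.92% ± 0.71 at D6 and 6.03% ± 0.84 at D13, and IAPEY4_I-int from 10.1% ± 5.46 through 1.22% ± 0.060 to 0.761% ± 0.238 (SD, n = 2). The other 3 families each held between 0.38% and 2.18% in every sample. As shares of a total, these values move together, and the share of IAPEz-int below serum came with a CPM above both serum samples. From D6 to D13 its mean log2 CPM also went from 8.30 to 7.85, with samples that overlapped.

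**Figure D4:**
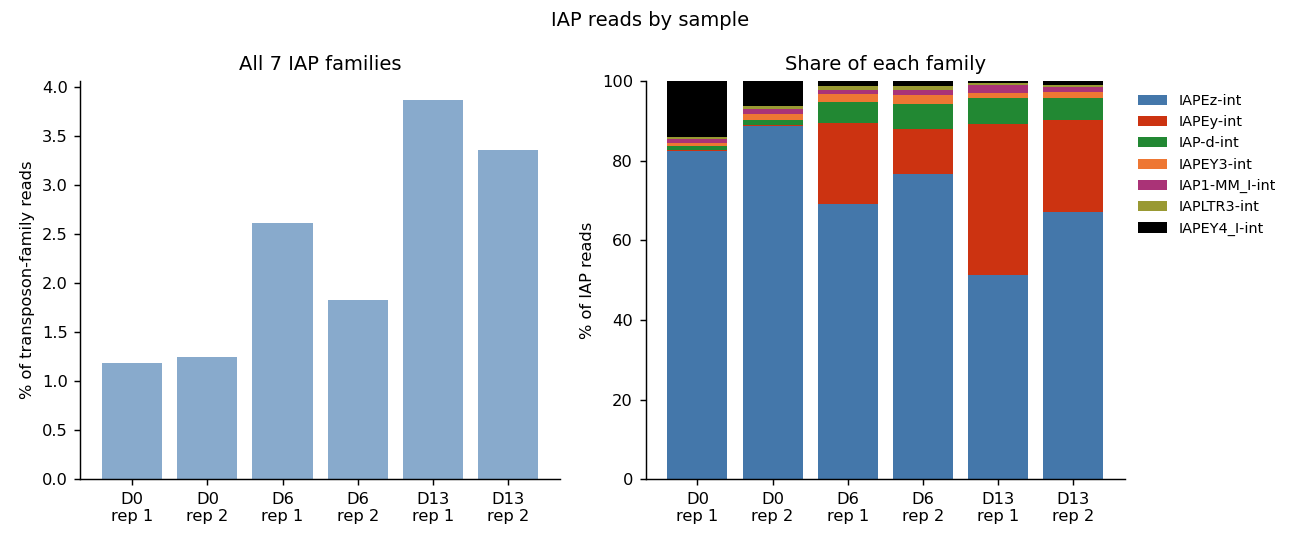
Left, the 7 IAP families together as a percent of the weighted reads on all transposon families in each sample; right, the share of each family in the IAP reads of the sample. The left bars run from 1.19% to 3.86%, and on the right IAPEy-int grows from under 0.15% at D0 to 37.8% and 23.2% at D13.

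For comparison, 11 rows of other LTR retrotransposons were taken by name. ETn and MusD elements are nonautonomous and autonomous relatives of the betaretrovirus-like class to which IAPs also belong, and MMERGLN is a gammaretrovirus-like element. Of the 11, 5 rose from D0 to D6 and 0 fell, with a median log2 fold change of 1.19, beside the 12.9% of all families that rose. The same count, 5 up and 0 down, held from D0 to D13, beside 9.27% and 5.63%, with a median of 0.72. MMERGLN-int rose by 5.01 and ETnERV3-int by 6.45 (limma adjusted p = 4.9e-05 and 0.00012), between IAP-d-int and IAPEy-int in size. Both exceeded IAPEz-int, by 3.82 and 5.26 (adjusted p = 0.0012 for both with the spread from the fit over days, 0.17 for both with own spread). From D6 to D13, 1 of the 11 fell and 0 rose, beside 3.97% and 0% of all families: ETnERV3-int fell by 3.43 on the log2 scale (limma adjusted p = 0.023), whereas IAPEy-int was at 0.84. That gap of -4.27 (SE 1.08) between them did not pass relative to IAPEy-int (adjusted p = 0.18). MMETn-int, with a log2 fold change of 0.10 to D6 and -0.46 to D13, and MMERVK10C-int, with 0.39 and -0.70, did not pass in any comparison. Nor did ETnERV-int (0.36 and 0.25), ETnERV2-int (1.28 and -0.10), RLTRETN_Mm (0.54 and 0.72) and RLTR10C (0.04 and -0.10). MMERGLN_LTR rose by 4.24 to D6 and by 4.25 to D13, and RLTR10D2 by 4.56 and 5.23. RLTR10-int, with 1.19 to D6 and 1.10 to D13 (adjusted p = 0.025 and 0.022), was within 0.37 of IAPEz-int in both, with intervals of -1.20 to 1.21 and -0.84 to 1.57 for the difference.

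**Figure D5:**
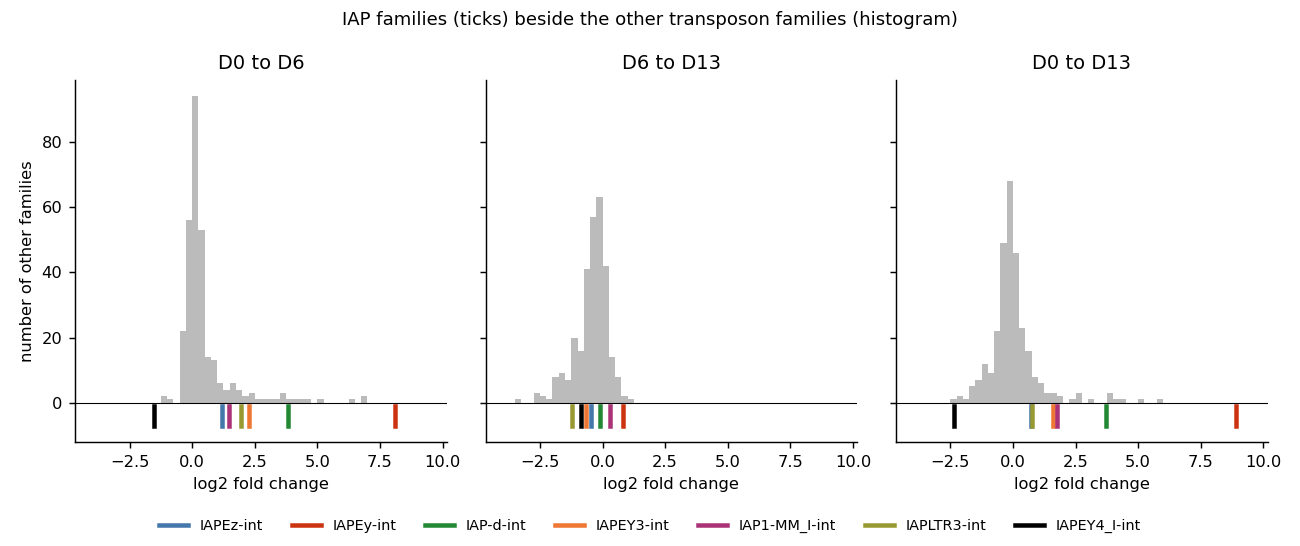
Histogram of the log2 fold change (x axis) of the 295 other transposon families for the 3 pairs of days, with the 7 IAP families as coloured ticks below it. From D0 to D6 the other families have a median of 0.17 and 6 IAP ticks lie to the right of 1, IAPEy-int at 8.09 beyond all other families, whereas IAPEY4_I-int lies to the left of them at -1.52.

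The families and genes whose course was most like that of 2 IAP families were found by the root mean square difference of centred log2 CPM over the 6 samples, among 284 families and 11456 genes with at least 10 reads in each sample. For IAPEz-int the closest families were MERV1_I-int, at 0.16 on the log2 scale, ORR1A2-int and RMER19A, both at 0.18, with log2 fold changes to D6 of 1.25, 0.98 and 1.18. Genes close to it were Nceh1 at 0.24, a cholesterol ester hydrolase, and Mlec at 0.25, a lectin of the endoplasmic reticulum. For IAPEy-int the closest of these families were RLTR13B2 at 2.00, MMERGLN_LTR at 2.06 and MMERGLN-int at 2.16. The minimum of 10 reads leaves out families that were near 0 in serum, which may lie closer. Its closest genes were Ly6a, a surface antigen of stem and progenitor cells, at 0.74, the channel gene Pkd2l1, also at 0.74, and the serine protease inhibitor Serpina3m at 0.78, each with a log2 fold change to D6 between 7.67 and 7.93. Serpina3m is, like Bglap3, a gene for which the study listed a chimeric transcript, with an MMERVK9C_I-int element as first exon. The 6 points of each profile share the libraries and their depth.

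Of the genes that act on IAPs or on DNA methylation, those of de novo methylation fell most. In the list of 9 DNA methylation genes, 8 were measured, 3 fell by more than 4-fold and 0 rose from D0 to D6 and again from D0 to D13, where 3.9% and 6.01% of all genes fell. Dnmt3l, the cofactor of the de novo methyltransferases, had 8.20 and 7.97 log2 CPM at D0, 2.61 and 3.81 at D6, then 2.04 and 1.48 at D13. It fell by 4.87 on the log2 scale (SE 0.39) to D6 and fell by 6.32 to D13 (limma adjusted p = 8.3e-05 and 2e-05). The methyltransferase genes Dnmt3a and Dnmt3b fell by 2.41 and 3.37 to D6 (adjusted p = 0.00026 and 0.00016). The maintenance enzyme Dnmt1 was at 0.18 and the remodeller gene Hells at -0.21 to D6 (limma adjusted p = 0.62 and 0.7). Uhrf1, the partner of Dnmt1, rose by 1.11 to D6 and 1.65 to D13 (limma adjusted p = 0.006 and 0.00054). It passed 2-fold, as did 11.8% and 16.6% of all genes, but not 4-fold. At a 2-fold minimum, 5 of the 8 fell to D13, beside 16.3% of all genes: the Dnmt3 genes and the 5-methylcytosine dioxygenase genes Tet1 and Tet2, which were -1.41 and -1.09 from D0 (adjusted p = 0.012 and 0.039). From D6 to D13, 0 of 8 passed in either direction, beside 0.388% of genes that rose and 0.697% that fell. Of the 12 measured of 13 genes of the TRIM28 and SETDB1 pathway and of H3K9me3, 0 passed 4-fold in any comparison, with medians between -0.18 and -0.17. As 5.91% of all genes rose and 3.9% fell to D6 by this rule, a count of 0 in 12 is near the background. Trim28 was at 10.9 and 10.4 log2 CPM at D0, 10.3 and 10.6 at D6, then 10.4 and 9.92 at D13, with a change of -0.23 to D6 (adjusted p = 0.62). Setdb1 was at 0.46 to D6 (adjusted p = 0.18) and Atf7ip, a SETDB1 partner, at 0.23 (adjusted p = 0.6). At a 2-fold minimum, 1 of the 12, the H3K9 methyltransferase gene Suv39h1, fell to D6, by 1.32 on the log2 scale (adjusted p = 0.0058), where 8.87% of all genes fell by that rule, and it was -0.23 from D0 at D13. Of 4 genes of H3.3 deposition and remodelling, 3 of polycomb and 4 restriction factors, 0 passed 4-fold. At 2-fold, 1 of these 11 fell to D13, Smarcad1, by 1.25 on the log2 scale (adjusted p = 0.0042), a share below the 16.3% of all genes. Atrx, Daxx, Ezh2, Eed, Suz12, Apobec3, Mov10 and Trex1 were within 1 log2 unit of D0 at both D6 and D13. The largest of these changes was that of Mov10, 0.99 above D0 at D13 (limma adjusted p = 0.0098), just short of 2-fold.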

How the data were processed

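The 6 RNA-seq samples were grouped by the day in the labels, with 2 replicates a day. The authors counted gene reads on mm10 with TopHat2 2.0.6 and HTSeq 0.6.1. For families, the authors removed rRNA and exonic reads, mapped the rest with Bowtie 1.0.0 without mismatches, divided a read among the sites it mapped to and summed reads per family of a rejoined RepeatMasker annotation. Whether families were counted by strand is not given in the sources used here. The authors applied TMM to both tables together and deposited the log2 CPM of voom, without its precision weights.

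Each gene value was a whole number of reads (100% within 0.01) plus 0.5, times a constant per sample, which gave the reads. In CPM, 3 reads came to 0.042 or less. The values were tested with limma 3.58.1 (R 4.3.3), with a mean per day on all 6 samples, a mean-variance trend, no block and Benjamini-Hochberg adjustment over 12928 rows. A family was called at more than 2-fold and a gene at more than 4-fold, with an adjusted p under 0.05. All IAP rows, the other LTR families and every gene of a list past its threshold were named, plus at most 3 others per list, and for IAPEz-int and IAPEy-int the 3 most alike families and genes, of which 1 gene is not reported here. Suv39h1, Tet1 and Tet2 were named after their values were seen. Members and lists were chosen with earlier results of these data known. The fit was tested on simulated data. Sequences were read with Python 3.11.15 and aligned with Biopython 1.88. The deposited gene names have lost their capital G. Tdg, Zfp429, Zfp352, Sox7, Foxa2, Cdx2, Elf5 and Dcn were not found among the names and are not analysed here. Alternatives were other filters, scalings, fits and thresholds and each sample left out in turn.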

Additional observations from a re-analysis of the deposited data

How the results depend on the processing

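The count of IAP families called from D0 to D6, 6, was 3 at an adjusted p under 0.01 and 3 at a 4-fold minimum, and from D0 to D13, 5 became 3 under each of these. With each sample left out in turn, the counts ranged from 3 to 6 and from 3 to 5, the lowest without D0 replicate 1 in both, and from 0 to 0 from D6 to D13. Relative to the median family, an alternative chosen after seeing the data with families fitted without genes, both counts were 5. This scaling shifted the IAP fold changes to D6 by -0.42 and those from D6 to D13 by 0.46 (log2), other scalings by at most 0.06. Without a mean-variance trend IAPEz-int lost its call at D6 (adjusted p = 0.053). The number of families that differed from IAPEz-int, 3 at D6 and 3 at D13, was 0 and 0 with each family's own spread, ranged from 2 to 3 and from 3 to 3 with a sample left out, and was 3 with the spread from the fit over days. As a percent of all counted reads, IAPs took 0.0164 at D0, 0.0473 at D6 and 0.0387 at D13. With a sample left out their share of transposon reads ranged from 1.19% to 1.24%, from 1.83% to 2.61% and from 3.35% to 3.86%. No direction of a called change was reversed under any alternative.

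Replicate numbers are shared between days, but with only 2 numbers they do not show pairs: the replicate difference correlated between days with r of 0.10 to 0.54 over families and -0.13 to 0.33 over genes. With the replicate block, 7 families were called by D6, 0 in the later interval and 5 between the end points, the addition being IAPEY4_I-int (adjusted p = 0.03), and 3, 0 and 3 differed from IAPEz-int. Depth limits the D0 level of IAPEy-int, at 18 and 21 reads, and of Bglap3, at 4 and 8.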
